A study of Homo sapiens with 13 samples.

Results

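The Mediator complex and its CDK8 kinase module were described here by 33 genes. The members are the symbols made of MED, digits and an optional letter, together with CDK8, CDK19 and CCNC. They were found among 24941 gene symbols in the Silvestrol table and 13121 in the INK128 table. All 33 were listed in the Silvestrol table, CDK19 under its older symbol CDC2L6, and 32 in the INK128 table, where MED12L is not listed. They were grouped as kinase module (7 genes), head (7), middle (7), scaffold (1), tail (5) and other core subunits whose placement differs between accounts (6), so that the core complex counted 26.

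MDA-MB-231 cells, a triple-negative ductal breast carcinoma line, were profiled in culture. For the Silvestrol experiment, ribosome footprints (RF) were sequenced from untreated cells, from cells given DMSO vehicle for 1 h or 2 h, and from cells given 25 nM Silvestrol, an inhibitor of the RNA helicase eIF4A, for 1 h or 2 h. Passage 3 cells gave all of these libraries and passage 4 cells gave a further pair at 2 h, so that only the 2 h footprints had 2 libraries a treatment. mRNA was sequenced once for each treatment at 2 h, from passage 3. In a separate experiment, footprints and total RNA were sequenced once each after 2 h of DMSO or of 200 nM INK128, a catalytic inhibitor of the kinase mTOR. The labels of 2 libraries are in conflict, and both were placed by their titles: the passage 3 Silvestrol RF library of 2 h carries a treatment field of 1 h, and the DMSO mRNA library carries a field of untreated. All groups are 1 cell line, with no genetic change named.

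Mediator bridges DNA-bound transcription factors and RNA polymerase II. Its head and middle contact the polymerase, its tail receives most activators, and MED14 is the backbone that holds them together. The kinase module docks reversibly on this core. It holds a cyclin-dependent kinase (CDK8 or its paralog CDK19), the partner cyclin C (CCNC), MED12 (or MED12L), which activates the kinase, and MED13 (or MED13L), which links the module to the core. While the module is bound, the core cannot engage the polymerase, and the module is known both as a repressor and as a co-activator of inducible genes.

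The RF libraries held 2652423 to 31188148 counted reads, the passage 4 pair being the smallest (6446356 with DMSO and 2652423 with Silvestrol), and the mRNA libraries 50315607 and 24792922. Markers of this line were present in every RF library, from 4790 to 7030 RPKM (reads per kilobase, scaled to library size) for VIM and from 138 to 344 RPKM for CD44, and all 5 markers of the mesenchymal state were at 85.7 RPKM or more. ESR1 was listed at 0, PGR at no more than 0.0419 RPKM and CDH1 at no more than 0.108 RPKM, whereas ERBB2 reached 4.05 RPKM and EPCAM 9.94 RPKM. Of the markers of other cells, CD3E and ALB were listed at 0, PTPRC and VWF reached at most 0.0384 RPKM, and PECAM1 has no RPKM value.

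Without drug, most core subunits carried more footprints per length than CDK8, CDK19, MED13 and MED13L. Over the 4 drug-free RF libraries, MED10 (middle) ranged from 181 to 218 RPKM, MED31 (middle) from 154 to 208 RPKM and MED20 (head) from 165 to 180 RPKM, and the range of MED31 overlapped with both others. In the kinase module, CCNC came first at 60.8 to 78.1 RPKM, followed by MED12 at 14.4 to 17.9 RPKM. CDK8 (8.63 to 11.2 RPKM), MED13 (8.87 to 10.7 RPKM) and CDK19 (9.09 to 10.2 RPKM) overlapped throughout, and MED13L (8.18 to 8.73 RPKM) overlapped with CDK8 alone of the 3. These 4 held ranks 28 to 31 of the 33 members. Of the core, MED27 ranked below them (mean 2.75 RPKM), and the range of MED26 (7.20 to 12.9 RPKM) overlapped with theirs. MED12L, the MED12 paralog, was at most 0.119 RPKM in these libraries, with 0 to 26 reads in any RF library, and it did not reach the minimum level (a mean of 1 RPKM for RF and 0.3 RPKM for mRNA). The other 32 members were tested, among 10588 genes.

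After 2 h of Silvestrol, footprints fell on 4 members, all in the kinase module: both kinases, CDK8 and CDK19, and both linkers, MED13 and MED13L. Each was left with 27.3% to 37.6% of its DMSO level. The 4 are 4 of the 6 kinase module genes tested and 4 of the 32 members, against 7.84% of all genes called lower (edgeR quasi-likelihood test, adjusted p below 0.05). None of the 26 core subunits passed this test in either direction, and no member was called higher, against 2.3% of all genes. With the passage as replicate block (a paired fit), 14 members were lower, 9 of them core subunits, against 28.0% of all genes, and 11 were higher, against 24.6% of all genes. At an unadjusted p below 0.05 without the block, 11 members were lower, against 18.7% of all genes, and 5 higher, against 12.3% of all genes. The median log2 RF change was −1.46 over the 6 kinase module genes, 0.12 over the 26 core genes and −0.02 over all genes tested. RPKM are shares of a library, so a change common to all genes is not seen, and fewer cells and less RNA per cell cannot be told apart.

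MED13L, the MED13 paralog (hg19 chr12:116396380-116714991), had the lowest log2 change over both passages, and within passage 3, while in passage 4 the RPKM ratio of CDK19 was lower (−1.93 against −1.77). The RF level of MED13L was 8.72 RPKM untreated, 8.18 with DMSO at 1 h and 3.46 with Silvestrol at 1 h, then 8.52 and 8.73 with DMSO at 2 h (passages 3 and 4) against 1.85 and 2.56 with Silvestrol. Every Silvestrol value lay below every drug-free value. The log2 change at 2 h was −1.88 ± 0.20 (SE, 2 libraries a group, adjusted p = 0.0161 in edgeR). MED13, which joins the kinase module to the core (chr17:60019965-60142643), was at 10.7 RPKM untreated, 8.87 with DMSO and 4.45 with Silvestrol at 1 h, and 9.19 and 10.3 with DMSO against 3.06 and 3.69 with Silvestrol at 2 h. Again no Silvestrol value reached a drug-free one, and the log2 change at 2 h was −1.41 ± 0.18 (adjusted p = 0.0181).

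CDK8, the kinase that gives the module its name (chr13:26828755-26978569), was at 11.2 RPKM untreated, 10.3 with DMSO and 5.10 with Silvestrol at 1 h, and 10.6 and 8.63 with DMSO against 2.75 and 2.91 with Silvestrol at 2 h. Its paralog CDK19 (chr6:110931180-111136412) was at 10.0 RPKM untreated, 9.09 with DMSO and 5.96 with Silvestrol at 1 h, and 9.51 and 10.2 with DMSO against 3.45 and 2.67 with Silvestrol at 2 h. For both kinases all Silvestrol values lay below all drug-free values. The log2 change at 2 h was −1.61 ± 0.28 for CDK8 (adjusted p = 0.0323) and −1.502 ± 0.28 for CDK19 (adjusted p = 0.0363). The passage 4 Silvestrol values rest on 14 reads for each kinase, against 64 and 88 reads in passage 3.

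The other 2 tested genes of the module, CCNC and MED12, passed the threshold with the passage as replicate block only, CCNC as lower (adjusted p = 0.00903) and MED12 as higher (adjusted p = 4.83e-05). CCNC, the cyclin that both kinases need (chr6:99990262-100016690), was at 60.8 RPKM untreated, 72.0 with DMSO and 52.4 with Silvestrol at 1 h, and 66.4 and 78.1 with DMSO against 51.1 and 48.4 with Silvestrol at 2 h. The Silvestrol values were again below all drug-free values, but by less, with a log2 change of −0.41 ± 0.17 (adjusted p = 0.185 without the block). MED12, which activates the kinase (chrX:70338405-70362304), was at 17.9 RPKM untreated, 17.2 with DMSO and 19.7 with Silvestrol at 1 h, and 17.3 and 14.4 with DMSO against 22.2 and 17.9 with Silvestrol at 2 h. Both Silvestrol values at 2 h were above both DMSO values, although the lower of them was at the level of the untreated library, and the log2 change was 0.47 ± 0.20 (adjusted p = 0.188 without the block). It was 0.23 without the Silvestrol library of passage 3 and 0.31 without the DMSO library of passage 4.

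**Figure D1:**
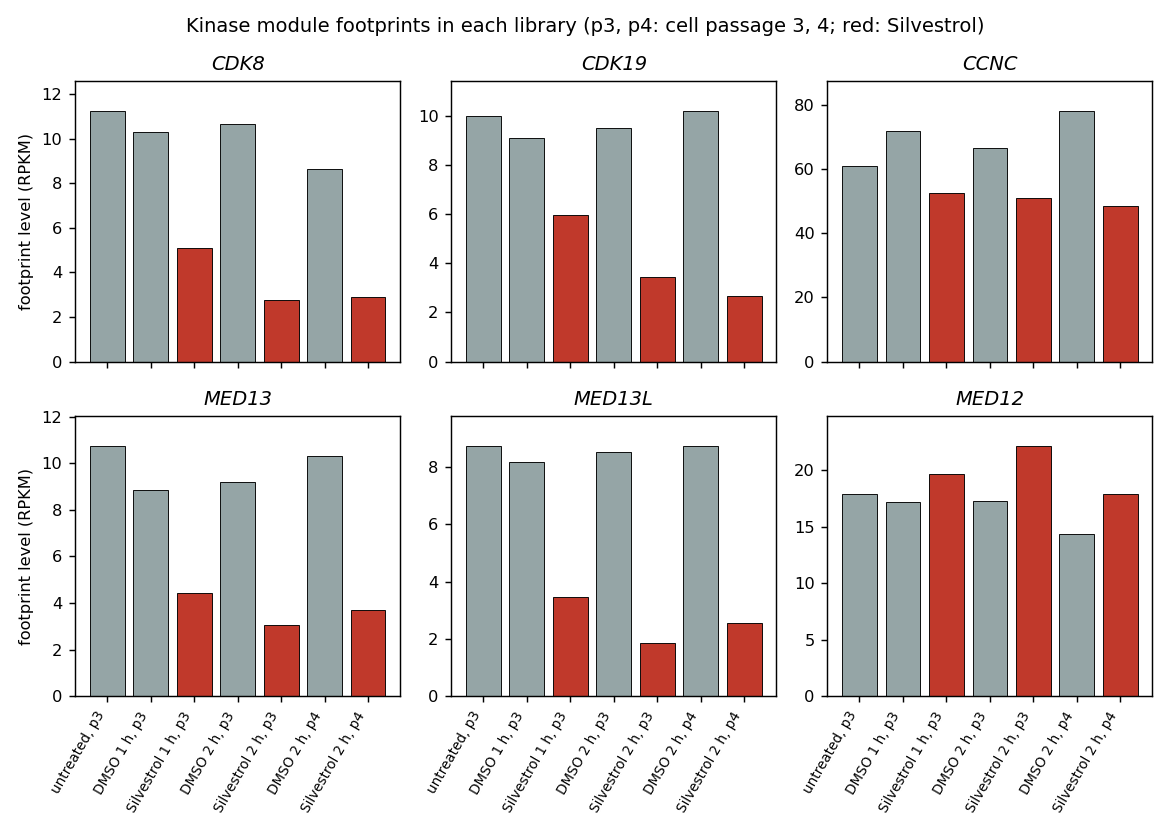
RF level (RPKM, linear axis from 0) of 6 kinase module genes in each of the 7 RF libraries, with 1 bar for each library and Silvestrol in red. CDK8, CDK19, MED13 and MED13L stood at 8.18 RPKM or more in every drug-free library and at 3.69 RPKM or less in every Silvestrol library of 2 h, whereas MED12 was higher with Silvestrol within each passage.

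Libraries of 1 passage deviated together from their group means (r = 0.67 across genes), and taking the passage as a replicate block raised the number of calls. The fit with the block leaves 1 residual degree of freedom, so its p-values rest largely on the spread pooled over genes. In the kinase module, CDK8, CDK19, MED13, MED13L and CCNC were then lower, and MED12 was higher. The 26 core genes split into 9 lower and 10 higher, in shares near or above those of all genes. Leaving out either Silvestrol library of 2 h ended all calls, with 0 members lower and 0 of all 10588 genes called in the fit without a block, while 1621 and 1950 genes had an unadjusted p below 0.05. The log2 changes stayed large in these fits, at −1.70 and −2.05 for MED13L without the passage 3 and the passage 4 library, −1.34 and −1.501 for MED13, −1.64 and −1.61 for CDK8, and −1.825 and −1.34 for CDK19. Leaving out the DMSO library of passage 3 ended the call of CDK8 (adjusted p = 0.0502), with a log2 change of −1.43.

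Both Silvestrol libraries of 2 h lay below both DMSO libraries for 15 of the 32 members, against 40.0% of all genes, and above both for 10, against 20.3% of all genes. The 7 members whose groups overlapped were MED8, MED15, MED18, MED19, MED27, MED30 and MED31, all of the core. The following core genes were called with the replicate block, and their 2 h values are given as DMSO in passages 3 and 4 against Silvestrol in passages 3 and 4.

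In the head, which contacts the polymerase and the general factors, 4 of 7 genes were lower with the block and 1 was higher. Of all genes, 28.0% were lower and 24.6% higher in that fit. MED22, a small head subunit, was at 76.2 and 48.7 RPKM against 29.6 and 28.1 RPKM, with a log2 change of −0.997 ± 0.28 that missed the threshold without the block in edgeR (adjusted p = 0.0834). It had the lowest change of any core gene over both passages, but within passage 4 the RPKM ratio of MED11 was lower (−0.844 against −0.795). The Silvestrol libraries of MED22 were close together while its DMSO libraries were not. MED22 passed without the block in DESeq2 (adjusted p = 0.0479) and, in edgeR, without the DMSO library of passage 4 (log2 change −1.30, adjusted p = 0.0137), whereas its log2 change was −0.58 without that of passage 3. MED11, which pairs with MED22, was at 69.8 and 95.4 RPKM against 47.6 and 53.1 RPKM (log2 change −0.58 ± 0.21). MED17, the central head subunit, was at 74.3 and 81.6 RPKM against 50.5 and 59.2 RPKM (log2 change −0.39 ± 0.13). MED20 was at 165.9 and 179.6 RPKM against 120.4 and 133.9 RPKM (log2 change −0.32 ± 0.13). All 3 of these had non-overlapping groups that differed by less than for the kinases. Both Silvestrol libraries lay below both DMSO libraries for 40.0% of all genes. MED6, which the head shares with the middle as a contact, was the exception, at 97.7 and 90.1 RPKM against 104.3 and 111.4 RPKM (log2 change 0.34 ± 0.15). MED8 (0.07) and MED18 (−0.11) were called in neither fit.

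The earlier and the mRNA libraries of these head genes were as follows, each with 1 library. MED22 was at 65.2 RPKM in untreated cells, 66.2 with DMSO and 32.8 with Silvestrol at 1 h, and its mRNA at 34.3 RPKM with DMSO and 32.3 RPKM with Silvestrol at 2 h. Its footprints were thus low with Silvestrol at both times, and its mRNA was nearly level. MED11 was at 74.0 RPKM untreated, 68.8 and 44.5 at 1 h, and its mRNA at 25.5 and 23.9 RPKM. MED17 was at 88.2 RPKM untreated, 79.8 and 61.9 at 1 h, and its mRNA at 17.2 and 25.9 RPKM. MED20 was at 166.7 RPKM untreated, 164.8 and 115.3 at 1 h, and its mRNA at 43.9 and 33.8 RPKM. All 3 were lower with Silvestrol at 1 h, while the mRNA of MED17 was higher. MED6 was at 90.6 RPKM untreated, 86.2 and 97.9 at 1 h, and its mRNA at 17.7 and 23.2 RPKM, so that both readouts were higher with Silvestrol.

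In the middle, 2 of 7 genes were lower with the block and 4 were higher, against 28.0% and 24.6% of all genes. MED1, the subunit that nuclear receptors bind, was at 22.9 and 20.8 RPKM against 14.1 and 18.0 RPKM (log2 change −0.34 ± 0.16). MED4 was at 59.6 and 66.2 RPKM against 40.5 and 44.7 RPKM (log2 change −0.44 ± 0.16), the lowest of the middle. These 2 had Silvestrol values below both DMSO values, as had 40.0% of all genes. MED9 was at 31.5 and 22.7 RPKM against 46.6 and 50.2 RPKM, with a log2 change of 0.93 ± 0.26 (adjusted p = 0.0807 without the block), the highest change of any member. MED9 passed without the block in DESeq2 (adjusted p = 0.043) and, in edgeR, without the DMSO library of passage 3 (log2 change 1.25, adjusted p = 0.0446). It did not pass without the DMSO library of passage 4 (0.70, adjusted p = 0.122) or without the Silvestrol library of passage 3 (adjusted p = 0.354) or 4 (adjusted p = 0.264). MED21 was at 94.0 and 97.4 RPKM against 132.1 and 123.1 RPKM (log2 change 0.57 ± 0.20). MED7, the partner of MED21 in the hinge of the middle, was at 43.8 and 44.9 RPKM against 52.2 and 49.1 RPKM (log2 change 0.32 ± 0.17). For these 3 genes both Silvestrol values exceeded both DMSO values, as for 20.3% of all genes. MED31 was at 172.8 and 207.6 RPKM against 190.0 and 235.9 RPKM (log2 change 0.28 ± 0.16), so that it was higher with Silvestrol within each passage although the groups overlapped. Leaving out 1 library moved the small changes of 3 of these genes by more than 1.5 times, to −0.22 for MED1 without the DMSO library of passage 3, to 0.20 for MED7 without the Silvestrol library of passage 3, and to 0.17 for MED31 without the Silvestrol library of passage 4 (0.19 without the DMSO library of passage 3). MED10 (−0.08) was called in neither fit.

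In the earlier and the mRNA libraries, MED1 was at 24.1 RPKM in footprints of untreated cells, 23.2 with DMSO and 18.3 with Silvestrol at 1 h, and at 11.2 and 17.5 RPKM in mRNA at 2 h. MED4 was at 60.6 RPKM untreated and 60.8 and 44.3 at 1 h. Both were lower with Silvestrol in footprints at 1 h and higher in mRNA at 2 h. MED9 was at 22.5 RPKM untreated, 26.99 and 31.5 at 1 h, and its mRNA at 11.3 and 9.80 RPKM. MED21 was at 96.2 RPKM untreated, with 15.6 and 17.6 RPKM in mRNA. MED7 was at 46.4 RPKM untreated and 49.7 and 56.8 at 1 h. MED9, MED21 and MED7 were higher with Silvestrol in footprints at 1 h, as was MED31. MED31 was at 169.9 RPKM untreated, 153.7 and 192.6 at 1 h, and its mRNA at 21.6 and 20.8 RPKM.

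The backbone subunit MED14 was at 61.3 and 69.2 RPKM against 47.7 and 55.9 RPKM, with a log2 change of −0.21 ± 0.13 that was called lower with the block only, a call that an offset for counted length ended (log2 change −0.20, adjusted p = 0.0753). In the tail, MED16 was at 46.9 and 37.7 RPKM against 27.2 and 24.1 RPKM (log2 change −0.60 ± 0.20), and MED23 at 11.7 and 13.6 RPKM against 7.69 and 8.86 RPKM (log2 change −0.49 ± 0.17). MED16 also passed without the block when the DMSO library of passage 4 was left out (log2 change −0.78, adjusted p = 0.0432), but not without that of passage 3 (−0.38, adjusted p = 0.261). Both were lower with the block and are subunits through which activators reach the complex. MED24, which sits beside them, was at 37.4 and 36.8 RPKM against 43.5 and 47.6 RPKM (log2 change 0.42 ± 0.13). MED25, the target of acidic activators, was at 49.7 and 37.5 RPKM against 71.3 and 66.9 RPKM (log2 change 0.79 ± 0.19, adjusted p = 0.058 without the block). MED25 passed without the block in DESeq2 (adjusted p = 0.0118) and, in edgeR, without the DMSO library of passage 3 (log2 change 1.035, adjusted p = 0.0232), but not without that of passage 4 (0.59, adjusted p = 0.0771). These 2 were higher with the block, so that the tail was divided 2 against 2, beside 28.0% of all genes lower and 24.6% higher. MED15 (0.10) was called in neither fit.

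MED14 was at 71.8 RPKM in footprints of untreated cells, 67.2 with DMSO and 55.5 with Silvestrol at 1 h, and at 23.0 and 23.9 RPKM in mRNA at 2 h. MED16 was at 46.7 RPKM untreated and 45.9 and 29.9 at 1 h. MED23 was at 12.9 RPKM untreated, 12.7 and 10.1 at 1 h, and its mRNA at 4.87 and 5.48 RPKM. These 3 were lower with Silvestrol in footprints at 1 h as at 2 h. MED24 was at 37.4 RPKM untreated, 38.4 and 36.9 at 1 h, and its mRNA at 35.0 and 27.9 RPKM. MED25 was at 45.2 RPKM untreated, 46.8 and 52.6 at 1 h, and its mRNA at 34.6 and 25.0 RPKM. MED24 was nearly level in footprints at 1 h and MED25 was higher, and both had lower mRNA with Silvestrol.

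Among the other core subunits, 3 of 6 were higher with the block and none lower, against 24.6% and 28.0% of all genes. MED26, which recruits elongation factors and joins the core when the kinase module is absent, was at 12.9 and 7.20 RPKM against 14.6 and 14.2 RPKM (log2 change 0.61 ± 0.33). This value rests on which DMSO library is used, with a log2 change of 1.17 (adjusted p = 0.0381) without that of passage 3 and 0.25 without that of passage 4, both in the fit without the block. MED28 was at 39.5 and 34.5 RPKM against 53.1 and 47.4 RPKM (log2 change 0.55 ± 0.19), and MED29 at 110.4 and 85.2 RPKM against 146.5 and 112.7 RPKM (log2 change 0.54 ± 0.24). The change of MED29 was 0.25 without the Silvestrol library of passage 3 and 0.33 without the DMSO library of passage 4. All 3 had both Silvestrol values above both DMSO values, as had 20.3% of all genes. MED19, the lowest change of this group, was at 57.9 and 41.1 RPKM against 52.9 and 46.3 RPKM (log2 change 0.13 ± 0.25), and MED30 had a log2 change of 0.21. MED27 was listed at 1.21 and 6.21 RPKM against 5.27 and 4.99 RPKM from 15, 31, 27 and 11 reads, and its log2 change of 0.38 ± 1.05 was not determined by these counts.

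In the earlier and the mRNA libraries, MED26 was at 12.7 RPKM in footprints of untreated cells and at 8.62 RPKM with DMSO and 11.9 RPKM with Silvestrol in mRNA at 2 h. MED28 was at 35.6 RPKM untreated, 34.9 and 48.1 at 1 h, and its mRNA at 16.5 and 15.4 RPKM. MED29 was at 101.8 RPKM untreated, 106.8 and 110.1 at 1 h, and its mRNA at 18.0 and 16.9 RPKM. MED28 and MED29 were thus higher with Silvestrol in footprints at 1 h and slightly lower in mRNA. MED19 was at 48.4 RPKM untreated, 47.9 and 49.2 at 1 h, and its mRNA at 21.3 and 18.4 RPKM. MED27 was listed at 0.565 RPKM untreated and at 2.99 and 1.62 RPKM at 1 h.

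**Figure D2:**
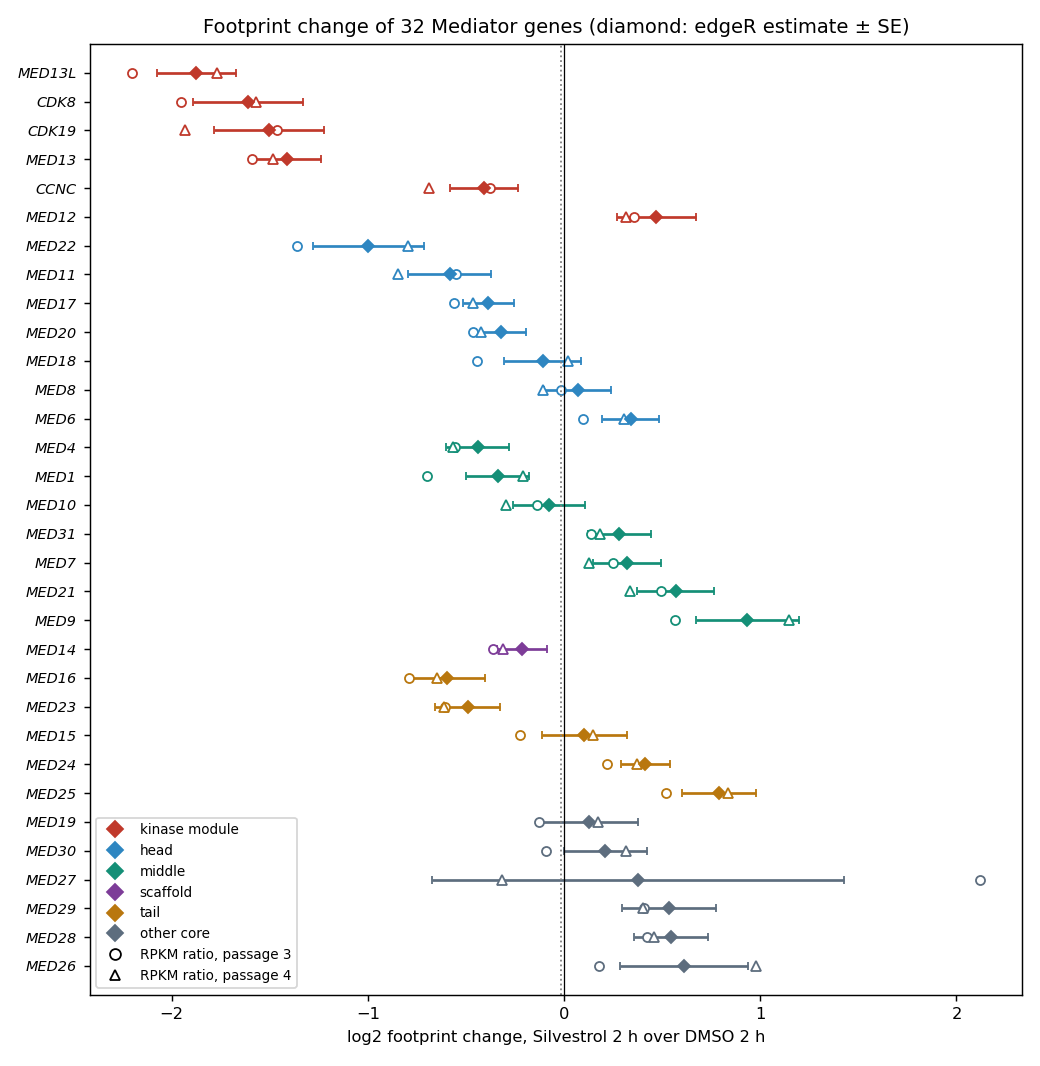
Log2 change of footprints after 2 h of Silvestrol for the 32 members tested, coloured by group, with the edgeR estimate and its SE (diamond, bar) and the RPKM ratio within passage 3 (circle) and passage 4 (triangle). The dotted line is the median of all genes tested, −0.02. The edgeR estimates of CDK8, CDK19, MED13 and MED13L lie between −1.88 and −1.41 and those of the core genes between −0.997 and 0.93, and single passages reach further, to −2.20 for MED13L and to 2.12 for MED27.

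The mRNA level was measured once in each treatment and gives values with no replicate check. No member was 2-fold lower, against 1.75% of all genes, and 2 were 2-fold higher, against 4.76% of all genes. These were the middle subunits MED4 (11.6 RPKM with DMSO, 23.9 RPKM with Silvestrol) and MED7 (9.68 and 19.4 RPKM), and neither was 2-fold higher in counts scaled by TMM or relative to the median of all genes. The mRNA of the kinase module was higher in 5 of the 6 genes and level in MED12, whose log2 change was 0.01 in RPKM and −0.03 relative to the median of all genes or in counts scaled by TMM. It was 6.84 RPKM with DMSO and 13.0 RPKM with Silvestrol for MED13, 8.78 and 13.1 RPKM for MED13L, and 14.6 and 26.8 RPKM for CCNC. For CDK8 it was 3.89 and 4.62 RPKM, for CDK19 3.23 and 3.74 RPKM, and for MED12 8.03 and 8.11 RPKM. The median log2 mRNA change was 0.42 over the kinase module, −0.09 over the core and 0.04 over all genes. Footprints and mRNA of MED13, MED13L, CDK8 and CDK19 had log2 changes of opposite sign in passage 3. The lowest mRNA changes in RPKM were those of MED27 (21.2 and 11.4 RPKM, log2 change −0.89) and MED16 (44.1 and 30.3 RPKM, log2 change −0.54). In counts scaled by TMM, MED16 (−0.59) was the lowest and MED27 was at −0.37, from 642 and 263 reads, since the length behind the RPKM of MED27 differs between the mRNA libraries.

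Translation efficiency (TE), the RF level over the mRNA level, was lower with Silvestrol for 5 of the 6 kinase module genes, by more than the footprints alone. The log2 TE change over all genes had a median of −0.29 and quartiles of −0.93 and 0.35, so a lower TE was common. In passage 3 the TE of MED13L was 0.97 with DMSO and 0.14 with Silvestrol, that of MED13 1.34 and 0.24, that of CDK8 2.74 and 0.60, and that of CDK19 2.95 and 0.92. CCNC went from 4.55 to 1.90, and MED12 from 2.15 to 2.73. The log2 TE change was turned into a z-score over all 10588 genes, with a call past −1.5 or 1.5. MED13L (z = −2.51), MED13 (z = −2.23) and CDK8 (z = −1.92) were past −1.5, so that 3 of 32 members were low, against 6.67% of all genes. CDK19 had z = −1.38, CCNC −0.96 and MED12 0.68. With the RF libraries of passage 4 over the same mRNA libraries, z was −2.13 for MED13L, −2.19 for MED13, −1.58 for CDK8 and −1.92 for CDK19. Past 1.5 were then MED9 (z = 1.72) and MED25 (z = 1.67), neither of which was past it with the RF libraries of passage 3.

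One member was past 1.5, against 4.82% of all genes, and this was MED27 (z = 3.40, and 0.91 with the RF libraries of passage 4). Its TE was listed as 0.057 with DMSO, the lowest DMSO value of the 32 members, and 0.46 with Silvestrol, from 15 and 27 footprint reads. A processed copy of MED27, CRSP8P, was listed beside it with 620 mRNA reads with DMSO, near the 642 of MED27, and with 0 reads in every RF library. In the INK128 table, which was made separately, MED27 was at 21.3 FPKM (fragments per kilobase, scaled to library size) and CRSP8P at 8.68 FPKM in the DMSO footprints. The Silvestrol table excludes positions that do not map uniquely, so the footprint, mRNA and TE levels of MED27 there are uncertain and no direction is read from them.

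**Figure D3:**
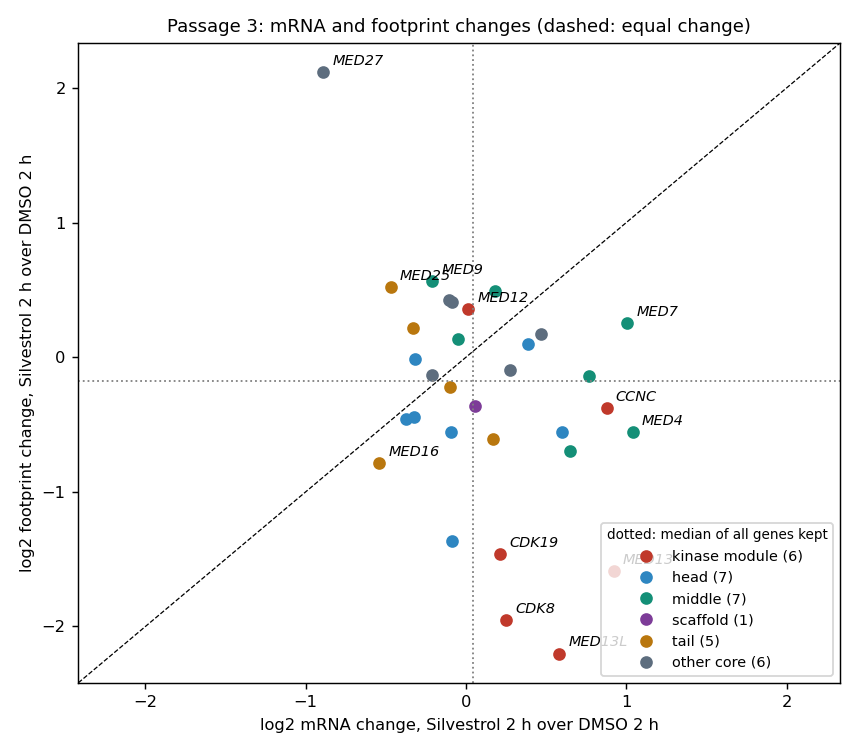
Log2 change of mRNA (x axis) and of footprints (y axis) after 2 h of Silvestrol in passage 3 for 32 members, 1 point a gene, coloured by group. The dashed line marks equal change and the dotted lines the medians of all genes. MED13, MED13L, CDK8 and CDK19 lie right of 0 for mRNA and at −1.46 or lower for footprints.

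The TE change was also tested as an interaction of assay and treatment over 6 libraries, in which the single mRNA libraries are taken to vary as the RF libraries do. No member passed (0 of 32 in either direction, against 0.0189% of all genes lower and 0.0% higher), with 8 members lower and 3 higher at an unadjusted p below 0.05, against 14.1% and 10.3% of all genes. The lowest adjusted p-values were 0.0701 for MED13 (log2 change −2.21 ± 0.28) and 0.0701 for MED13L (−2.33 ± 0.31). With the passage as replicate block, 10 members were lower, against 21.8% of all genes, and 6 were higher, against 21.8% of all genes. The kinase module gave 5 of the 10, namely MED13, MED13L, CDK8, CDK19 and CCNC, and 1 of the 6, MED12. The core gave MED1, MED4, MED10, MED17 and MED22 as lower and MED9, MED24, MED25, MED28 and MED29 as higher. With DESeq2 and no block, MED13, MED13L and MED4 were lower, 3 of 32 against 4.91% of all genes, and MED25 was higher, 1 of 32 against 3.39% of all genes.

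At 1 h, with 1 library a treatment, footprints of 5 of the 6 kinase module genes were lower with Silvestrol than with DMSO. A lower value was common at this time. Of the core genes, 17 were lower and 9 higher, and the log2 change over all genes had an upper quartile of 0.08. RF levels of CDK8, MED13L and MED22 were past 2-fold lower, 3 of 32 against 7.99% of all genes, and no member was 2-fold higher, against 0.388% of all genes. Relative to the median of all genes, MED13L alone of the members stayed past 2-fold. The log2 change was −1.24 for MED13L, −1.01 for CDK8, −0.99 for MED13, −0.61 for CDK19, −0.46 for CCNC and 0.20 for MED12. MED22 went from 66.2 to 32.8 RPKM (log2 change −1.01). The median of the kinase module was −0.80, that of the core −0.18 and that of all genes −0.18. At 1 h MED26 went from 12.7 to 9.18 RPKM (log2 change −0.47), on the other side of 0 from its 2 h value, and MED21 had the highest change (0.59, from 81.7 to 122.8 RPKM).

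The change at 2 h was set against that at 1 h in 1 edgeR model, each time with its own DMSO libraries. Each treatment had 1 library at 1 h, taken to vary as those of 2 h do, so that the spread comes from the 2 h libraries alone. No member passed, with 0 of 32 also at an unadjusted p below 0.05, and 91 of all 10588 genes at that level. With the passage as replicate block, which leaves 1 residual degree of freedom, MED13L passed with a lower change at 2 h (log2 difference −0.80 ± 0.24, adjusted p = 0.0452, against 1.0 without the block), 1 member against 1.09% of all genes. MED26 passed with a higher one (0.93 ± 0.26, adjusted p = 0.0192, against 1.0 without the block), 1 member against 0.916% of all genes. With no replicate at 1 h, a difference between the times is not established for either gene. The differences for CDK19 (−0.98 ± 0.33, adjusted p = 0.11), CDK8 (−0.84 ± 0.35, adjusted p = 0.239) and MED13 (−0.55 ± 0.23, adjusted p = 0.215) did not pass.

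**Figure D4:**
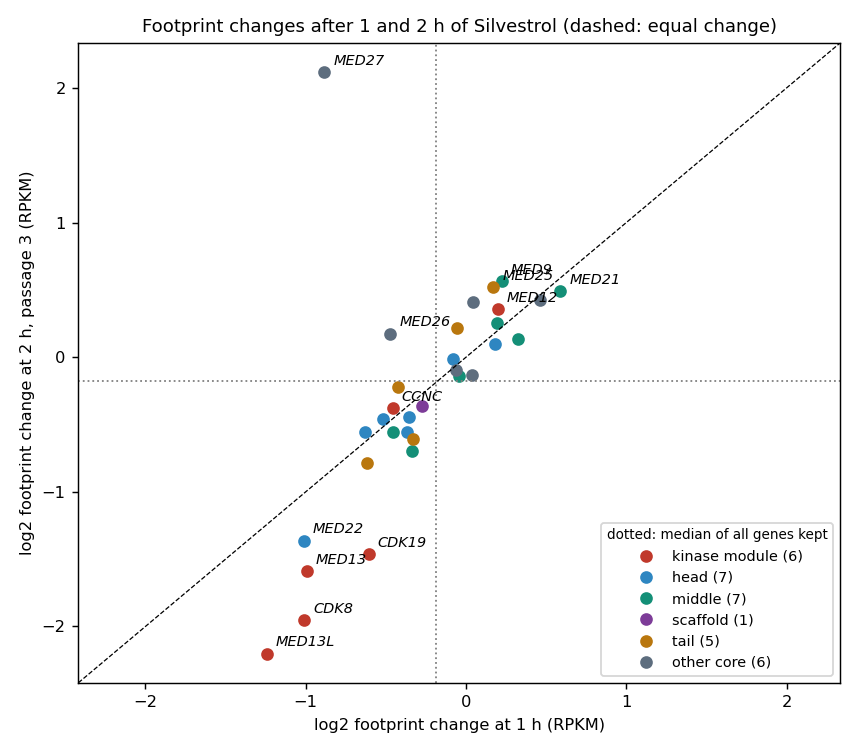
Log2 change of footprints (RPKM) after 1 h (x axis) and 2 h (y axis) of Silvestrol in passage 3 for 32 members, coloured by group. The dashed line marks equal change and the dotted lines the medians of all genes. MED13L, MED13, CDK8 and CDK19 lie below the dashed line, at −1.24 to −0.61 at 1 h and −2.20 to −1.46 at 2 h, and MED26 lies above it.

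The 5′ UTRs were read from GENCODE version 44 on GRCh37, with 1 transcript for each gene, since eIF4A unwinds this region ahead of the scanning ribosome. All 33 members were matched. Of the 6 kinase module genes tested, all 6 have an ATG upstream of the start codon in the 5′ UTR, against 4 of the 26 core genes and 38.7% of 10300 genes. The median 5′ UTR was 246 nucleotides in the module, 66.5 in the core and 133 over all genes, and the median GC content was 71.8%, 65.1% and 67.6%. Within the module the lengths ran from 73 nucleotides in MED13 to 562 in MED13L, with 513 in CDK8, 333 in CDK19, 159 in MED12 and 133 in CCNC. MED13L also had the highest GC content of any member, at 82.4%, followed by MED26 at 80.5%. MED13 has the shortest 5′ UTR of the module and MED13L the longest, and both fell. MED12, which was not lower, has an upstream ATG as well. Whether these features bear on the footprint changes was not tested.

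Searched on the transcript strand for 4 GGC triplets in a row (GGCGGCGGCGGC), 5.27% of all 5′ UTRs held a match, and among the members only MED13L and MED26 did. Repeats of CGG or GCG of the same length were not searched. The match of MED13L follows a C and so also holds 4 CGG triplets in a row, whereas that of MED26 does not. The windows are shown because these members alone hold the repeat, which is given in capitals.
MED13L: ctccgcGGCGGCGGCGGCtccgag
MED26: tttggtGGCGGCGGCGGCccggga
Both read 5′ to 3′ on the minus strand of GRCh37 (hg19). The gene interval of MED13L given above comes from the INK128 table, whereas the GENCODE transcript starts further upstream, so that the window lies outside that interval. The MED13L window lies at chr12:116715320-116715343, in the 5′ UTR, 383 nucleotides ahead of the start codon, and that of MED26 at chr19:16738927-16738950, in the 5′ UTR, 172 nucleotides ahead of it. No test was made of the repeat against the RF changes.

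INK128 gave no comparable change in the footprints of any member, as far as 1 library a group can show. Log2 RF changes ran from −0.50 for MED9 (3.79 FPKM with DMSO, 2.68 FPKM with INK128) to 0.35 for MED13 (2.87 and 3.65 FPKM), and the median was 0.01 for the 32 members and 0.01 for all genes. CDK8 was at 3.15 and 2.66 FPKM, CDK19 at 1.03 and 0.88 FPKM, and MED13L at 2.66 and 3.25 FPKM. MED12 was at 5.34 and 5.41 FPKM and CCNC at 14.9 and 11.8 FPKM. No member was 2-fold lower, against 1.96% of all genes, or 2-fold higher, against 1.69% of all genes. MED13 and MED13L lay above their DMSO values, on the other side from Silvestrol. In total RNA, MED13 was at 0.544 FPKM with DMSO and 0.194 FPKM with INK128, MED13L at 0.428 and 0.231 FPKM, CDK8 at 0.202 and 0.083 FPKM, and CDK19 at 0.126 and 0.069 FPKM. MED12 was at 0.589 and 0.271 FPKM and CCNC at 0.626 and 0.350 FPKM in total RNA, so that all 6 were lower with INK128, although CCNC, CDK19, MED12 and MED13L lay above the median change of all genes.

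Total RNA in the INK128 experiment was low, between 0.07 and 1.82 FPKM for the members, and was lower with INK128 for 32 of 32. The median log2 change was −1.15 for the members and −1.17 for all genes, and 20 of the 27 members that passed the minimum were 2-fold lower, against 73.8% of all genes. Relative to the median of all genes, 0 of 27 members were 2-fold lower, against 0.31% of all genes, and 15 of the 27 lay above that median. The TE z-score could be made for 27 members, since CDK8, CDK19, MED4, MED7 and MED23 did not reach the minimum of 0.3 FPKM in total RNA. No member was past −1.5, against 5.58% of all genes. The head subunit MED11 was past 1.5 (z = 1.66), 1 member against 1.75% of all genes, with 16.6 and 16.7 FPKM in footprints and 0.73 and 0.19 FPKM in total RNA, a call that a pseudocount of 0.5 FPKM ended. In the kinase module, z was 1.40 for MED13, 0.12 for MED13L, 0.04 for MED12 and −1.20 for CCNC.

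**Figure D5:**
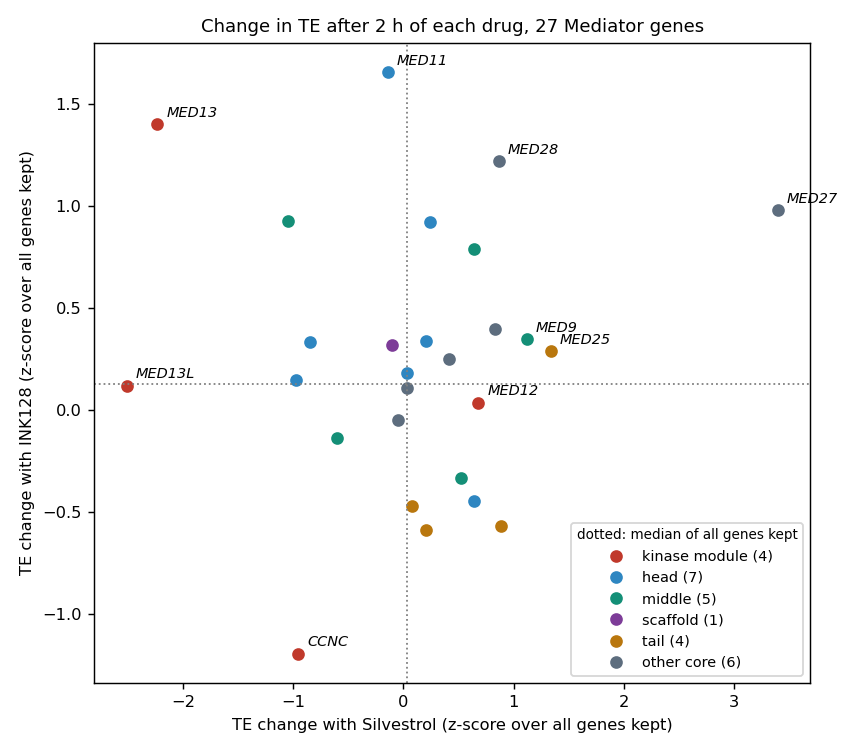
TE change as z-score after 2 h of Silvestrol (x axis) and of INK128 (y axis) for the 27 members with both, coloured by group, with dotted lines at the medians of all genes. MED13L and MED13 lie at −2.51 and −2.23 for Silvestrol and at 0.12 and 1.40 for INK128.

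Other genes of the transcription machinery were read from 4 lists, with the same edgeR test of footprints at 2 h. The median log2 change was 0.30 for the polymerase, −0.12 for the general factors, −0.36 for the elongation genes and −0.69 for the coactivators and cohesin, beside −0.02 for all genes. The counts are to be read against 7.84% of all genes lower and 2.3% higher. Of the 12 subunits of RNA polymerase II, 1 fell, the catalytic subunit POLR2A (78.1 and 56.8 RPKM with DMSO, 27.3 and 27.4 RPKM with Silvestrol, log2 change −1.16 ± 0.20, adjusted p = 0.032), and 1 rose, the small subunit POLR2L (log2 change 0.94 ± 0.14, adjusted p = 0.0227). Of 16 tested general factors, 2 fell (GTF2A1 at −0.71 and GTF2E2 at −0.80) and 1 rose (GTF2B at 0.73). The lowest value of that list, −1.11 for GTF2A2, did not pass (adjusted p = 0.0549).

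Of the 14 elongation kinases and partners, 5 fell and 0 rose. These were HEXIM1, the inhibitor of the elongation kinase P-TEFb (−2.001 ± 0.15), its partner LARP7 (−1.002), the transcriptional kinases CDK12 (−1.93 ± 0.16) and CDK13 (−1.33 ± 0.18), and their cyclin CCNK (−0.92). CDK12 was at 29.1 and 26.2 RPKM with DMSO against 6.55 and 6.73 RPKM with Silvestrol. CDK9 (−0.07) and the general factor kinase CDK7 (−0.06) did not pass. Of the 10 coactivators and cohesin genes, 4 fell and 0 rose, namely the acetyltransferases EP300 (−2.44 ± 0.17, from 13.6 and 13.4 RPKM to 2.07 and 2.54 RPKM) and CREBBP (−0.93), the cohesin loader NIPBL (−0.99) and the cohesin subunit STAG2 (−1.09). The highest of these 2 lists were CCNT2 (0.88, adjusted p = 0.0534) and the cohesin loader partner MAU2 (0.88, adjusted p = 0.0644). With the replicate block, where 28.0% of all genes were lower and 24.6% higher, the calls were 2 lower and 6 higher for the polymerase, 7 and 6 for the general factors, 7 and 2 for the elongation genes, and 7 and 2 for the coactivators and cohesin.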

How the data were processed

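For the Silvestrol experiment the authors aligned reads with Bowtie to hg19 and UCSC canonical transcripts and deposited uniquely mapped read counts and RPKM for each library, the RPKM without positions that are not unique. The submitters' processing notes also name CASAVA 1.8.1 and Bowtie2. For INK128 the authors deposited FPKM, without counts. Columns of the authors' own TE, log2 TE change, score and mean RPKM were not used.

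Of 38897 lines, 25758 were distinct, and for 527 symbols with several entries the one with the highest mean RF level was kept. Symbols of older date were renamed through the RefSeq accession. Genes needed values above 0 in the passage 3 libraries of 2 h, a mean RF RPKM of 1 and a mean mRNA RPKM of 0.3 (10588 genes, and 7102 for FPKM by the same limits). Counts were tested with edgeR 4.0.16 (quasi-likelihood, TMM, Benjamini-Hochberg over all genes, threshold 0.05), with DESeq2 1.42.0 in R 4.3.3 as alternative. Unreplicated changes are log2 ratios without pseudocount, called at 2-fold. Counts were also simulated, with 200 of 10588 genes changed by 2 on the log2 scale. They gave 185 recovered and 13 false calls for the RF test at 2 h. The TE interaction gave 64 recovered and 3 false, and 2 h against 1 h gave 29 recovered and 1 false. In the measured RF libraries of 2 h, log2 changes of the members ran from −1.88 to 0.93. Recovery of changes smaller than 2 was not tested. An exact permutation test of 2 against 2 libraries cannot go below p = 0.33, so none was run.

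Same-numbered libraries share a passage by their labels, and their deviations from the group means correlated across genes (r = 0.67). Without the block, p-values measure the spread between 2 passages of 1 line. The block takes out what a passage shares and leaves 1 residual degree of freedom. Its p-values therefore rest largely on the spread pooled over genes. The members, gene lists and tests were chosen with earlier results of these data known. The genes named are the kinase module, each member called in the RF test at 2 h with or without the block, those past a TE z-score of 1.5, and the extremes of each group. Their values are given in the libraries of the Silvestrol experiment, and in those of INK128 for the kinase module and for members that stood out there.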

Additional observations from a re-analysis of the deposited data

Results flagged for a closer look

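The RF change of 2 members passed the test of 2 h against 1 h of Silvestrol only in the edgeR model with the passage as replicate block. That model called 1.09% of all genes lower and 0.916% higher. Without the block, 0 of all 10588 genes passed (91 at an unadjusted p below 0.05). For MED13L, the kinase module linker, the log2 difference (2 h minus 1 h) was −0.80 (adjusted p = 0.0452), and −0.76 without the block (adjusted p = 1.0). For MED26, a core subunit, it was 0.93 (adjusted p = 0.0192), and 0.96 without the block (adjusted p = 1.0). At 1 h there was 1 library a treatment, so the spread comes from the 2 h libraries and a difference between the times is not established, and MED26 rests on 107 reads in DMSO and 89 in Silvestrol in passage 4 at 2 h. The 2 h change of MED26 without the block was 1.17 (adjusted p = 0.0381) without the DMSO library of passage 3 and 0.25 without that of passage 4.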

How the results depend on the processing

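For the 25 genes followed one by one through the RF test at 2 h, no direction turned under any alternative. Elsewhere directions turned for 4 of 32 members in RF at 1 h, for 1 of 32 in mRNA (MED12) and for 15 of 27 in total RNA with INK128, each relative to the median of all genes, and for 1 of 32 in TE z-score (MED30, −0.045 and 0.36) with the passage 4 RF libraries. In the RF test at 2 h the 4 lower members became 14 with the replicate block (paired by passage) and 13 with the block and an offset for counted length. They became 2 with a minimum mean of 5 RPKM in both RF and mRNA, which CDK8 and CDK19 do not reach in mRNA. The count also moved when a library was left out. With DESeq2 the lower members were 5, MED22 being added. Of all 10588 genes, DESeq2 called 997 lower and 542 higher, and edgeR without the block 830 and 243. The 0 higher members became 11 with the block, 12 with the block and the offset, 2 with DESeq2 (MED9 and MED25) and 0 to 3 with a library left out. For the TE interaction, 0 lower became 10 with the block and 3 with DESeq2, and 0 higher became 6 and 1. Of all 10588 genes, the block called 2303 lower and 2305 higher and DESeq2 520 and 359, against 2 and 0 without the block in edgeR. Leaving out a DMSO library of 2 h moved the counts of members and of all genes as well. For 2 h against 1 h, 0 and 0 became 1 and 1 with the block. The TE z-score with Silvestrol called 1 member higher, 0 with a minimum of 5 and 2 with the passage 4 RF libraries (MED9 and MED25 in place of MED27). At 1 h, 3 lower became 1 relative to the median of all genes, 1 with CPM and TMM and 8 at 1.5-fold, where 1 was higher. For mRNA, 2 higher became 1 with a pseudocount of 0.5, 0 relative to the median, 0 with CPM and TMM and 7 at 1.5-fold, where 1 was lower. With INK128, 1 TE call higher became 0 with the pseudocount, 0 without minimum values, 0 with a minimum of 5, 0 at a threshold of 2 and 3 with median and MAD, which also gave 1 lower, and the 20 members with total RNA 2-fold lower became 2 with the pseudocount and 0 relative to the median. The causes were not tested. For 25 single genes, 273 checks of the RF result (1 gene under 1 alternative) were made, of which 215 kept the side of the threshold, 49 passed only under the alternative and 9 lost it, all for CDK8, CDK19, MED13 or MED13L. Small counts limit the passage 4 values, and the single 1 h, mRNA and INK128 libraries give no error.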
